A study of Mus musculus with 6 samples.

Results

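The genes described here encode nuclear subunits of the mitochondrial respiratory chain, the protein complexes that pass electrons from NADH and succinate to oxygen, and of the ATP synthase that uses the resulting proton gradient. They were picked out by gene symbol, under a rule set with earlier results of these data known. They are 83 of the 18193 genes measured, with 36 in complex I, 4 in complex II, 9 in complex III, 17 in complex IV and 17 in complex V. Total RNA of retinas from BALBc mice, an inbred albino strain, was measured on 6 Affymetrix arrays. Both groups had been dark adapted for 1 week. The 3 dark adapted arrays carry RNA from mice without light exposure, and the 3 light damaged arrays carry RNA from mice exposed to 6000 lux of white fluorescent light for 6 h, with retinas taken 24 h after the damage. Nothing in the labels tells whether retinas were pooled or whether each replicate came from its own animal. The p-values therefore reflect the spread among these 6 RNA samples only, part or all of which may be technical.

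Complex I oxidises NADH and complex II oxidises succinate. Both hand electrons to ubiquinone, complex III passes them to cytochrome c, complex IV passes them to oxygen, and complex V makes ATP. Photoreceptors pack mitochondria into the ellipsoid of the inner segment and are among the most energy-demanding cells of the body. Subunits encoded in mitochondrial DNA were not analysed here. In RNA of a whole tissue, fewer cells of a type and less RNA per cell cannot be told apart.

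No respiratory chain gene passed the test after light damage, and the measured differences were small. The values are log2 expression values made by the authors with RMA, so a difference of 1 is a 2-fold change. Of the 83 genes, 0 had an adjusted p under 0.05 in limma, a linear model with variances moderated across genes, against 2.01% of all 18193 genes (1.74% higher and 0.269% lower). After renewed quantile normalization of the deposited values it was also 0 of 83, against 2.68%. At an unadjusted p under 0.05 there were 5 of the 83 (6.02%), against 11% of all genes. The 95% interval of the change lay between -1 and 1, that is within a 2-fold change in either direction, for all 83 genes, and for 92.2% of all genes. For 79 of the 83 the interval also excluded a fall of 1.5-fold or more, as it did for 15111 of all 18193 genes. It lay within 1.5-fold in both directions for 48 of the 83, and for 10857 of all genes. These intervals are those of single genes and are not adjusted for their number. The counts are given for the deposited scale only. Centring on 6 reference genes lowered every change by 0.16, which moves the intervals down by as much.

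**Figure D1:**
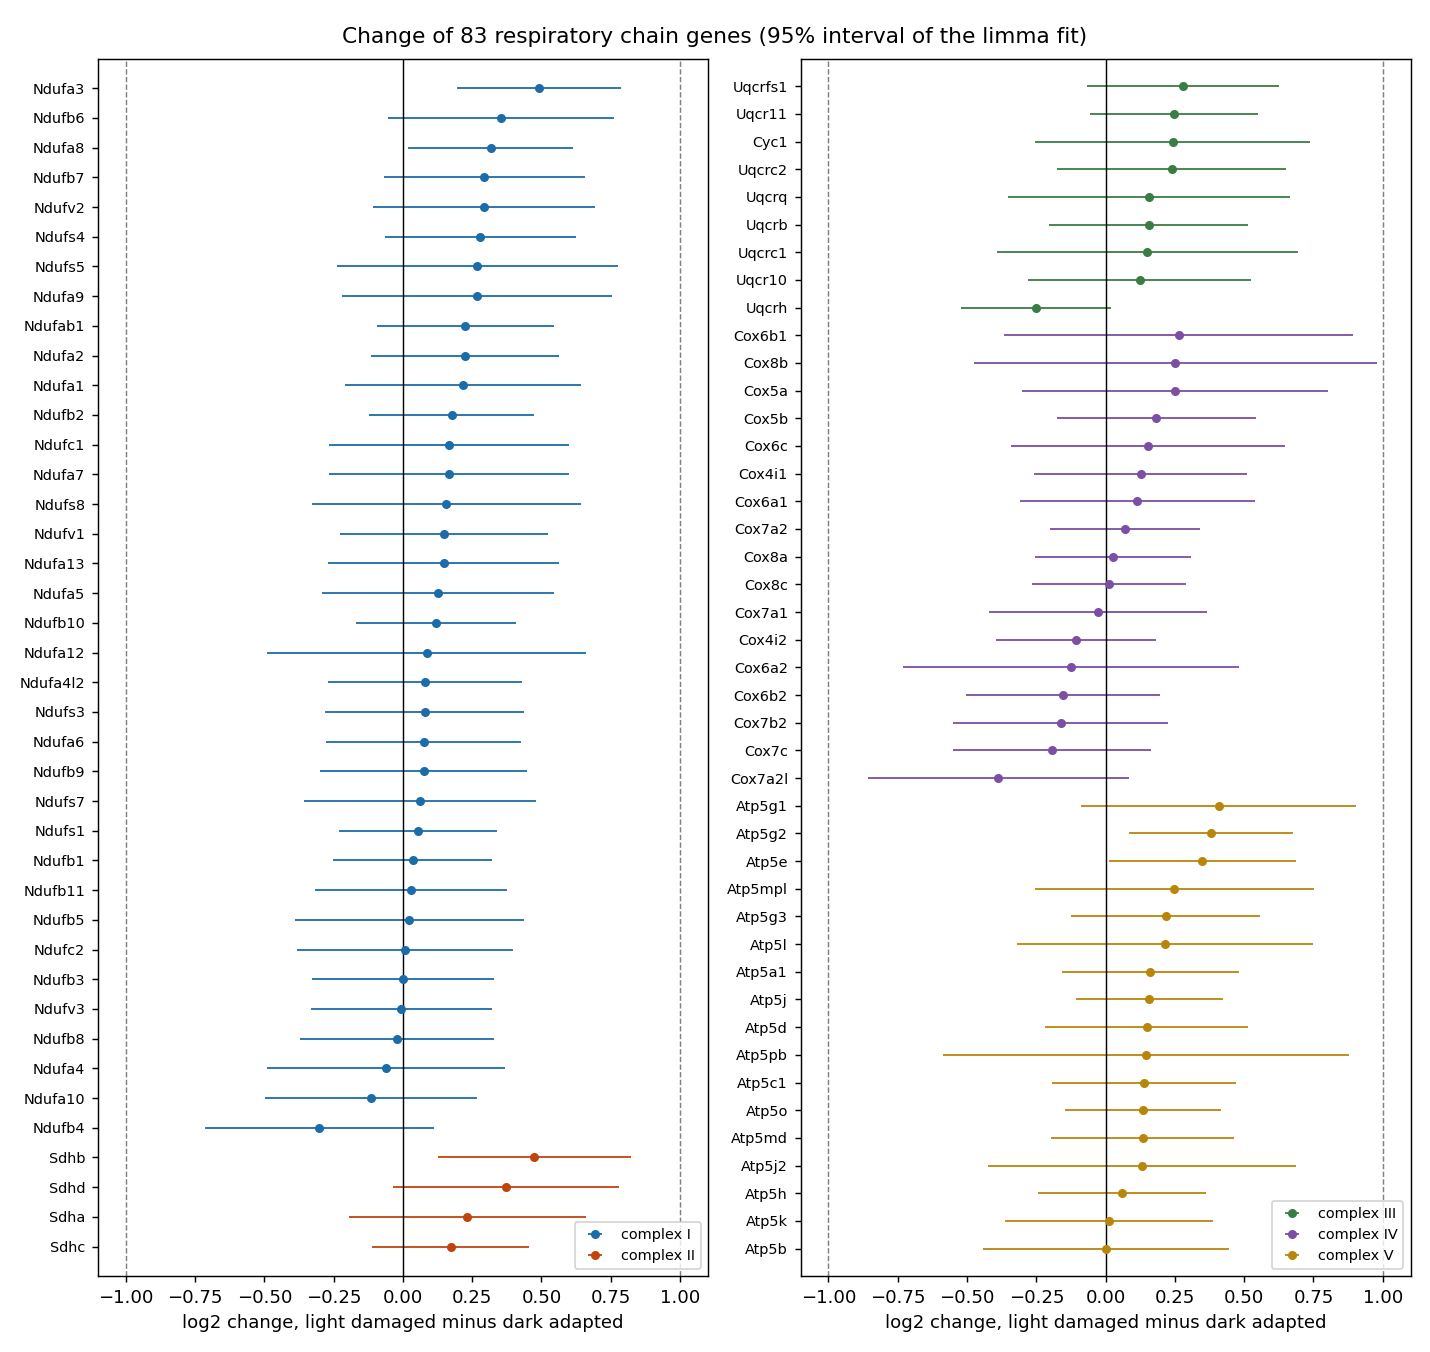
Log2 change of each of the 83 genes, light damaged minus dark adapted (points), with the 95% interval of the limma fit (bars, 3 arrays per group), by complex in colour. The dashed lines at -1 and 1 mark a 2-fold change, and no bar reaches them; the points run from -0.39 (Cox7a2l) to 0.49 (Ndufa3).

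Small positive differences prevailed. The change was positive for 69 genes and negative for 14, with a median of 0.15 (1.11-fold), while over all genes 57% were positive and the median was 0.03. In 16 genes the 3 light damaged values lay above the 3 dark adapted values (19.3%, against 11.9% of all genes), and in 1 gene, Uqcrh, they lay below (3.75% of all genes). The median rested on 1 array. The mean log2 level of the 83 genes was 10.00, 9.92 and 9.59 on dark adapted arrays 1, 2 and 3, and 9.99, 9.99 and 9.90 on light damaged arrays 1, 2 and 3. Dark adapted array 3 therefore stood below the other 5, and it held the lowest of the 6 values in 67 of the 83 genes (80.7%, against 34.2% of all genes). Without that array the median change was -0.0021. The same array had the lowest upper quartile of all probe sets (7.41, against 7.49 to 7.67 on the others) and the lowest mean level of the 6 measured reference genes (10.66, against 10.83 to 11.21). Its lens genes had the highest mean level (10.90, against 9.19 to 10.85). The part of these in the result was not tested. After the values were normalized by quantiles again, the member means were 9.84, 9.98 and 9.88 in dark adapted and 9.82, 9.96 and 9.90 in light damaged arrays, 41 changes were negative, and the median change was 0.00067. Centring on the reference genes gave a median of -0.017, and -0.13 for all genes. It lowered every change by the same 0.16, the mean change of the reference genes. The distance between the medians of members and of all genes therefore could not change. The prevailing sign of the 83 genes therefore depended on the scaling.

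**Figure D2:**
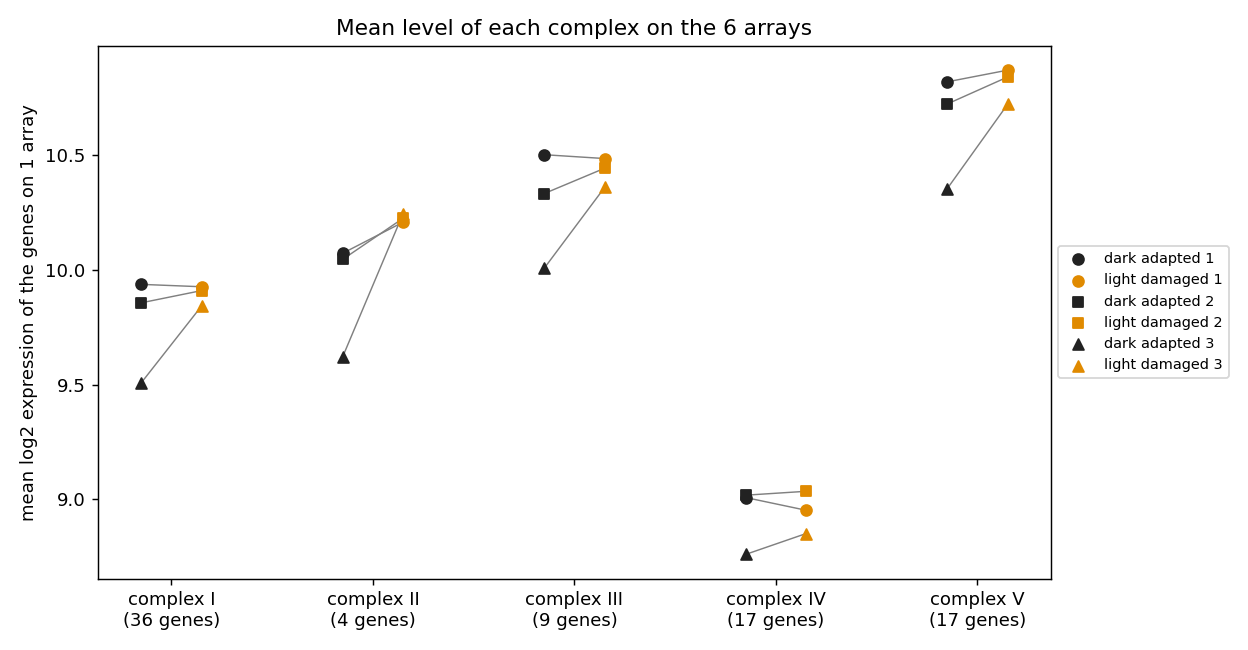
Mean log2 expression of the genes of each complex on each array, dark adapted in black and light damaged in orange, with a line joining arrays of the same replicate number (levels of different complexes come from different probe sets and are not compared). Dark adapted array 3 (black triangle) was the lowest in every complex, at 9.51 in complex I and 10.35 in complex V.

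The replicate numbers of the titles were taken to pair the arrays, an inference from these same values that no label states. The deviations of same-numbered arrays from their group means correlated over all probe sets (between 0.43 and 0.73). The median difference of the 83 genes was 0.0073 in pair 1, 0.09 in pair 2 and 0.35 in pair 3, and over all genes it was -0.012, 0.03 and 0.12. The difference was positive in 45, 58 and 73 of the 83 genes, respectively. In 38 genes all 3 pairs were positive (45.8%, against 27.7% of all genes) and in 5 all were negative (6.02%, against 16.8%). With the replicate number as a block in the limma model 1 gene rose, Ndufa3, and none fell, against 8.87% of all genes called in that fit.

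**Figure D3:**
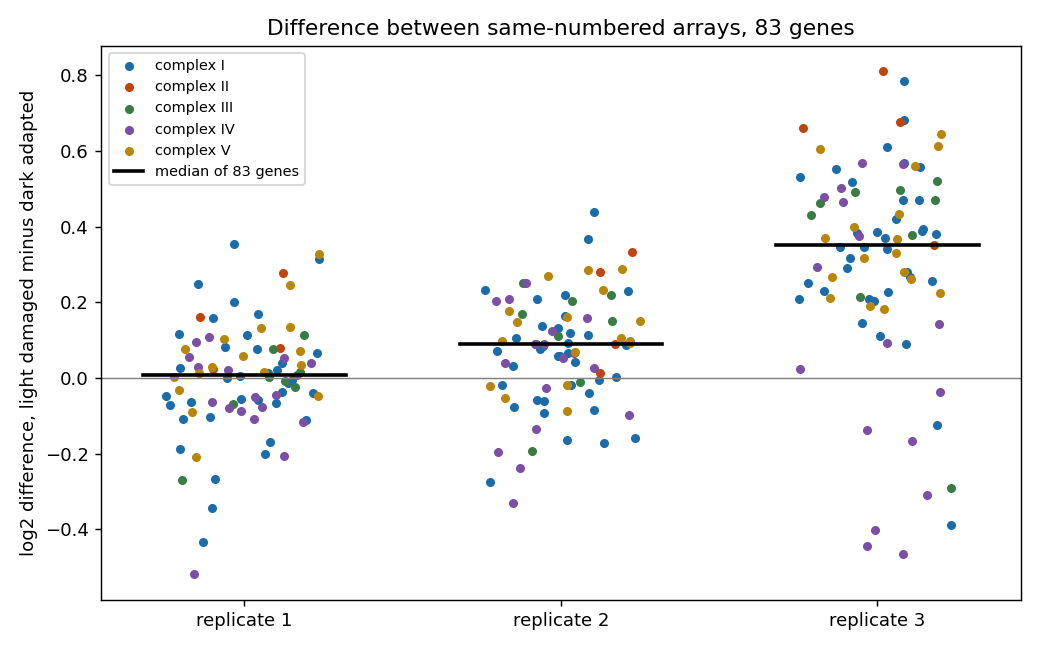
Log2 difference between light damaged and dark adapted arrays of the same replicate number for the 83 genes (points, coloured by complex), with the median of each pair as a bar and points spread sideways for display. The medians are 0.0073, 0.09 and 0.35, and 45, 58 and 73 points lie above 0.

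Each of 4 motifs searched was present in a larger share of member promoters than of all promoters, a difference that was not tested. Promoter sequences came from RefSeq (GRCm38.p6) and were found for 67 of the 83 genes, in 72 promoters. The 250 bases before the start were searched on both strands. The motif of NRF-1, a nuclear activator of respiratory genes, spelled by the capitals of Atp5g2 in the sequences that follow, was found in 3 of the 72 member promoters (4.17%) and in 1.23% of the promoters of all measured genes. The core CCGGAAG bound by ETS factors such as GABP was in 12 (16.7%, against 10.1%), GCCATNTT of YY1 in 6 (8.33%, against 3.81%) and TCAAGGTCA of ERR-alpha in 1 (1.39%, against 0.322%). The median change of the 12 genes with the ETS core was 0.23, and 0.14 for members without it. For the 3 genes with the NRF-1 motif it was 0.11, against 0.15 without it, and for the 6 with the YY1 motif 0.14, against 0.15. The 1 gene with the ERR-alpha motif had 0.22, against 0.14 for the others. These small numbers of genes were not compared by a test. A match is a description and not a binding site, and no match says only that the letters are not in this window. The 100 bases before the start are shown for Ndufa3 and Cox7a2l, the only members called in any of the fits given here, for Uqcrh and Sdhd, whose groups did not overlap in opposite directions, and for Atp5g2, which holds the NRF-1 motif. Capitals mark the ETS core in Uqcrh and Sdhd (read on the other strand) and the NRF-1 motif in Atp5g2, while Ndufa3 and Cox7a2l hold none of the 4 motifs in this stretch.
Ndufa3 (chr7:3617273-3617372, plus strand): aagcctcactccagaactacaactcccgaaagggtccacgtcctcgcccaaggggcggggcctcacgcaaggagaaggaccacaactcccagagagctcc
Cox7a2l (chr17:83514334-83514433, minus strand): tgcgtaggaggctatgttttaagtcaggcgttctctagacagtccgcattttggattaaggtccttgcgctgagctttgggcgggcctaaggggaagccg
Uqcrh (chr4:116075071-116075170, minus strand): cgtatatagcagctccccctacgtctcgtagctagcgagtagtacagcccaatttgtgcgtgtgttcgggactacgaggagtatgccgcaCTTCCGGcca
Sdhd (chr9:50603850-50603949, minus strand): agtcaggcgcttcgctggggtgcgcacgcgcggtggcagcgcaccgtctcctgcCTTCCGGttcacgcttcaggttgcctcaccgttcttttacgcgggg
Atp5g2 (chr15:102671048-102671147, minus strand): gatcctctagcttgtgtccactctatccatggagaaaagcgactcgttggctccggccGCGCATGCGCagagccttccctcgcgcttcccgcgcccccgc

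In complex I, the changes of the 36 genes lay between -0.30 and 0.49 with a median of 0.12, and 30 were positive (after quantile normalization 17 were negative, with a median of 0.00073). The 6 measured core subunits that carry the flavin and iron-sulfur electron path or line the quinone site (Ndufs1, Ndufs3, Ndufs7, Ndufs8, Ndufv1 and Ndufv2) had changes from 0.05 to 0.29, median 0.11. Ndufa3, an accessory subunit of the membrane arm, had the smallest p of all 83 genes. Its log2 levels were 10.77, 10.83 and 10.62 in dark adapted and 11.12, 11.27 and 11.30 in light damaged retinas. All light damaged values lay above all dark adapted ones, and the 3 pairs differed by 0.35, 0.44 and 0.68. The change was 0.49 ± 0.13 (SE, n = 3 per group), 1.41-fold, with a limma adjusted p = 0.123 and 0.0255 with the replicate block. This is a probe set of a type that may also match other transcripts. A further probe set of Ndufa3 gave 0.49, and a dim one gave 0.05. After renewed quantile normalization its change was 0.34, and the call with the block was lost (adjusted p = 0.0664).

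Ndufa8, an accessory subunit of the intermembrane side, had levels of 10.10, 10.02 and 9.86 in dark adapted and 10.21, 10.39 and 10.33 in light damaged retinas. The groups did not overlap, by a narrow margin, and the change of 0.32 did not pass (adjusted p = 0.401 in limma). Ndufb6, another membrane arm subunit, went from 10.22 ± 0.30 to 10.58 ± 0.16 (mean ± SD, n = 3 per group), with overlapping groups (adjusted p = 0.552 in limma). The members of complex I without overlap between groups were Ndufa2, Ndufa3, Ndufa8, Ndufab1, Ndufb2, Ndufb7 and Ndufs4, all higher in light damaged retinas. They are 19.4% of the 36 genes, against 11.9% of all genes. Dark adapted array 3 held the lowest value of each of these 7, as it did in 31 of the 36.

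Of the 6 complex I genes with negative changes, Ndufb4 had the lowest, -0.30 with an interval from -0.71 to 0.11, but its probe set lay below the lower quartile of all genes (mean 5.38). A pair of brighter probe sets, assigned to Ndufb4 together with its copies Ndufb4b and Ndufb4c, gave 0.15 and 0.21. Ndufa4, named for complex I and placed in complex IV by later work, had levels of 11.46, 11.67 and 11.01 in dark adapted and 11.41, 11.39 and 11.15 in light damaged retinas. The change was -0.06 with an interval from -0.49 to 0.37. Its relative Ndufa4l2, which is induced by hypoxia in many cells, had 6.69, 6.73 and 6.74 against 6.63, 6.69 and 7.09, a change of 0.08 with an interval from -0.27 to 0.43. Without Ndufa4 and Ndufa4l2 the median of complex I was 0.14.

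One probe set of Ndufa12, an accessory subunit, departed from the other readings of the gene. Named after its values were seen, it read 8.24, 7.76 and 6.52 in dark adapted and 6.30, 5.41 and 6.35 in light damaged retinas, a difference of -1.49. All light damaged values lay below all dark adapted ones, but the difference did not pass over all 45037 probe sets (limma adjusted p = 0.277, and 0.0755 with the replicate block). The 3 brighter probe sets of Ndufa12 gave 0.09, -0.01 and 0.03.

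Complex II, succinate dehydrogenase, had the highest median of the 5 complexes, 0.30 over 4 genes, all of them positive in all 3 pairs. It stayed positive in other scalings, at 0.14 both after quantile normalization and after centring on the reference genes. Sdhb, the iron-sulfur subunit, had levels of 9.93, 9.99 and 9.57 in dark adapted and 10.21, 10.33 and 10.38 in light damaged retinas. Its groups did not overlap, and the change was 0.47 ± 0.15 (SE, n = 3 per group), 1.39-fold, with a limma adjusted p = 0.228 and 0.0527 with the replicate block. Sdhd, a membrane anchor that helps bind ubiquinone, had 9.55, 9.47 and 8.94 against 9.71, 9.75 and 9.62, again without overlap (change 0.37, limma adjusted p = 0.516), although its other probe set gave -0.26. Sdhc, the second anchor, went from 9.85 ± 0.09 to 10.02 ± 0.06 (mean ± SD, n = 3 per group), with no overlap but a change of only 0.17. Sdha, the flavoprotein that oxidises succinate, had 10.90, 10.83 and 10.23 against 10.92, 10.84 and 10.89. Its pairs 1 and 2 differed by 0.02 and 0.01 and pair 3 by 0.66, so its change of 0.23 came from dark adapted array 3. Without that array the median of complex II was 0.15. The mean of all probe sets per gene gave a median of 0.13 for the complex.

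In complex III, 8 of 9 changes were positive with a median of 0.16 (0.058 after quantile normalization and -0.0075 after centring on the reference genes). Uqcrh, the hinge protein beside cytochrome c1, was the exception and the only one of the 83 genes with all light damaged values below all dark adapted ones. Its levels were 10.82, 10.82 and 10.92 in dark adapted and 10.55, 10.63 and 10.63 in light damaged retinas. The change was -0.25 with an interval from -0.52 to 0.02 (limma adjusted p = 0.508, and 0.183 with the replicate block). Dark adapted array 3 held its highest value, and its other probe set gave -0.13. After quantile normalization the change was -0.41.

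Uqcrfs1, the Rieske iron-sulfur protein, had 9.92, 9.85 and 9.47 against 10.04, 10.05 and 9.99, without overlap and with a change of 0.28 (limma adjusted p = 0.606). Cyc1, cytochrome c1, had 10.79, 10.50 and 9.96 against 10.80, 10.72 and 10.46, with overlapping groups and pairs of 0.01, 0.22 and 0.50. Uqcr11, a small subunit, went from 9.18 ± 0.13 to 9.42 ± 0.11 and Uqcrb, which contacts the quinone site, from 12.21 ± 0.26 to 12.37 ± 0.07 (mean ± SD, n = 3 per group). The 4 core or catalytic genes (Uqcrc1, Uqcrc2, Uqcrfs1 and Cyc1) had a median of 0.24 and the 5 small subunits 0.15.

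Complex IV, cytochrome c oxidase, had the median closest to 0 in the deposited values, 0.03 over 17 genes, with 7 negative changes. After quantile normalization 13 were negative, and its median of -0.10 was the lowest of the 5 complexes. In none of the 17 did the groups stand apart, against 11.9% of all genes with light damaged higher and 3.75% with it lower. Cox7a2l had the lowest change of the 83 genes. Its levels were 10.34, 10.21 and 9.71 in dark adapted and 9.82, 9.88 and 9.40 in light damaged retinas. The groups overlapped, as dark adapted array 3 was low, but the pairs differed by -0.52, -0.33 and -0.31. The change was -0.39 ± 0.21 (SE, n = 3 per group), with a limma adjusted p = 0.595, and 0.056 with the replicate block. With renewed quantile normalization and the block it fell by 0.53 (adjusted p = 0.0223), and it was the only member called in that fit, which called 6.82% of all genes and 2.65% lower. Its other 2 probe sets gave -0.36 and -0.28.

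The common isoforms of complex IV had small differences with overlapping groups. Cox4i1 had 11.69, 11.47 and 11.15 in dark adapted and 11.71, 11.54 and 11.44 in light damaged retinas, a change of 0.13. Cox7a2 had 11.67, 11.63 and 11.62 against 11.77, 11.72 and 11.64. Cox8a went from 11.88 ± 0.11 to 11.90 ± 0.04, Cox6a1 from 12.07 ± 0.34 to 12.18 ± 0.11, Cox5b from 11.58 ± 0.26 to 11.76 ± 0.02 and Cox6b1 from 10.80 ± 0.52 to 11.06 ± 0.34 (mean ± SD, n = 3 per group). The limma intervals for Cox7a2 (-0.20 to 0.34) and Cox8a (-0.25 to 0.31) were the narrowest among these. After quantile normalization the changes of Cox4i1, Cox7a2, Cox8a, Cox6a1 and Cox5b were negative, and that of Cox6b1 was 0.052.

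The tissue isoforms of complex IV, which replace the common ones in lung, in heart and skeletal muscle or in testis, had a median of -0.11 over 7 genes, with 5 negative. Cox4i2, the lung isoform, had 7.04, 7.26 and 7.08 against 6.95, 7.06 and 7.04. The muscle isoforms gave changes of -0.13 (Cox6a2), -0.03 (Cox7a1) and 0.25 (Cox8b), and the testis isoforms -0.15 (Cox6b2), -0.16 (Cox7b2) and 0.01 (Cox8c). None passed the test. Cox7a1 and Cox7b2 lay below the lower quartile of all genes (means 4.64 and 3.89), as did Cox7c (5.37), so little can be read from these 3. Without the tissue isoforms the complex had a median of 0.12. Skeletal muscle markers had mean levels of 5.65 to 5.95 in dark adapted and 5.62 to 5.87 in light damaged arrays.

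In complex V, all 17 changes were positive, with a median of 0.15, but 9 were negative after quantile normalization, with a median of -0.0051. By role, the median was 0.38 for the 3 c subunit genes, 0.15 for the 5 of the catalytic head and 0.14 for the other 9. The c subunit genes stayed positive after quantile normalization, with a median of 0.24. Atp5g1, Atp5g2 and Atp5g3 encode the same mature protein, which forms the rotor ring, and differ in their import sequences. Atp5g2 had levels of 10.71, 10.69 and 10.46 in dark adapted and 10.96, 10.98 and 11.07 in light damaged retinas, without overlap. Its change was 0.38 ± 0.13 (SE, n = 3 per group), with a limma adjusted p = 0.272 and 0.0773 with the replicate block, though its other probe sets gave -0.13 and 0.11. Atp5g1 had 9.90, 10.07 and 9.31 against 10.23, 10.35 and 9.92, overlapping because of 1 light damaged array, with a change of 0.41 and positive differences in all pairs (0.33, 0.29 and 0.61; limma adjusted p = 0.592, and 0.056 with the block). Atp5g3 had 12.16, 12.07 and 11.75 against 12.30, 12.22 and 12.12, a change of 0.22 with overlapping groups.

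In the catalytic head of complex V, Atp5b, the beta subunit that holds the catalytic sites, had 12.44, 12.11 and 11.78 in dark adapted and 12.35, 12.02 and 11.97 in light damaged retinas. Its mean was 12.11 in both groups, with an interval of the change from -0.44 to 0.44. Atp5e, the small epsilon subunit of the central stalk, had 9.20, 9.22 and 8.85 against 9.33, 9.49 and 9.50, without overlap (change 0.35, limma adjusted p = 0.425). The 9 subunits outside the head and ring had changes between 0.01 and 0.25.

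Other mitochondrial genes that serve the chain gave few calls, all of them rises. The electron carriers and their enzymes (14 measured), the citric acid cycle (19), the assembly factors of the complexes (44) and the uncoupling and antioxidant genes (10) had no gene past the threshold and medians of 0.18, 0.18, 0.12 and 0.18. Of 28 carrier and import genes 1 rose, of 76 mitochondrial ribosome genes 4 rose, and of 23 genes of biogenesis and dynamics 1 rose, against 1.74% of all genes called higher. None of these lists had a gene that fell. With the replicate block 22 genes of the 7 lists rose and 5 fell, against 6.73% and 2.13% of all genes. The 5 that fell were 2 of the 44 assembly factors, 2 of the 28 carrier and import genes and 1 of the 23 genes of biogenesis and dynamics. Among those that rose were 8 of the 76 mitochondrial ribosome genes and 4 of the 28 carrier and import genes.

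Mrps6, a protein of the small mitochondrial ribosomal subunit, had 8.14, 7.90 and 8.12 in dark adapted and 9.74, 9.76 and 9.67 in light damaged retinas, a 3.18-fold rise with a limma adjusted p = 0.000979, and its other probe set gave 1.34. In RefSeq the gene Slc5a3, for a myo-inositol transporter, overlaps Mrps6, and the strand and transcript that these probe sets read were not checked. Mrps25 had a mean of 7.17 ± 0.14 in dark adapted and 8.37 ± 0.12 in light damaged retinas (SD, n = 3 per group), a 2.29-fold rise (limma adjusted p = 0.0041). Its other probe sets gave smaller differences of 0.29 and 0.75, and in RefSeq it overlaps Nr2c2, for a nuclear receptor. Mrpl52 (1.79-fold) and Mrpl35 (1.70-fold), both of the large subunit, also rose, but other probe sets of Mrpl35 gave -0.45 and -0.24, and those of Mrpl52 0.03 to 1.30. Hspa9, the chaperone that pulls proteins into the matrix, had 8.92, 8.97 and 8.75 in dark adapted and 9.53, 9.61 and 9.69 in light damaged retinas, a 1.66-fold rise that was lost after quantile normalization (adjusted p = 0.0847 in limma). The other probe sets of Hspa9 gave 0.04 to 0.60. Pprc1, a coactivator related to PGC-1alpha, rose 1.75-fold with a limma adjusted p = 0.0495. With 1 array left out, Mrps6 and Mrps25 kept the call each time, as they did after centring on the reference genes. Mrpl52, Mrpl35, Hspa9 and Pprc1 lost it after that centring and in 1 or more of these leave-outs, where their highest limma adjusted p was 0.12, 0.188, 0.133 and 0.192, respectively.

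Several further genes, named for having the smallest p of their lists, had no overlap between groups without passing. Over all genes 11.9% had no overlap with light damaged higher and 3.75% with it lower. Etfa, which feeds electrons from fatty acid oxidation into the chain, had 8.25 to 8.48 on the dark adapted and 8.95 to 9.07 on the light damaged arrays (limma adjusted p = 0.0553). Idh2, the NADP-linked isocitrate dehydrogenase, had 7.26, 7.37 and 7.63 against 7.88, 8.30 and 8.15 (adjusted p = 0.0865 in limma). Ndufaf6, an assembly factor of complex I, had 6.48, 6.21 and 6.04 against 7.07, 6.76 and 6.86 (adjusted p = 0.098 in limma). Sdhaf1, which assembles the iron-sulfur subunit of complex II, had 8.15, 7.98 and 8.15 against 7.74, 7.61 and 7.75, a change of -0.39 in the opposite direction to that of Sdhb (adjusted p = 0.227 in limma, and 0.044 with the block). These 4 genes were called with the replicate block. The remaining genes with the smallest p of their lists were all higher in light damaged retinas without passing, by 0.65 (Hspe1, the partner of the matrix chaperonin), 0.46 (Etfb), 0.48 (Fh1, fumarase), 0.64 (Nnt, the transhydrogenase that makes NADPH), 0.44 (Prdx3, a peroxidase of the matrix) and 0.31 (Twnk, the helicase of mitochondrial DNA). With the replicate block Hspe1, Etfb, Fh1, Nnt and Prdx3 were called as well (limma adjusted p from 0.0066 to 0.0478), and Twnk was not (0.152).

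**Figure D4:**
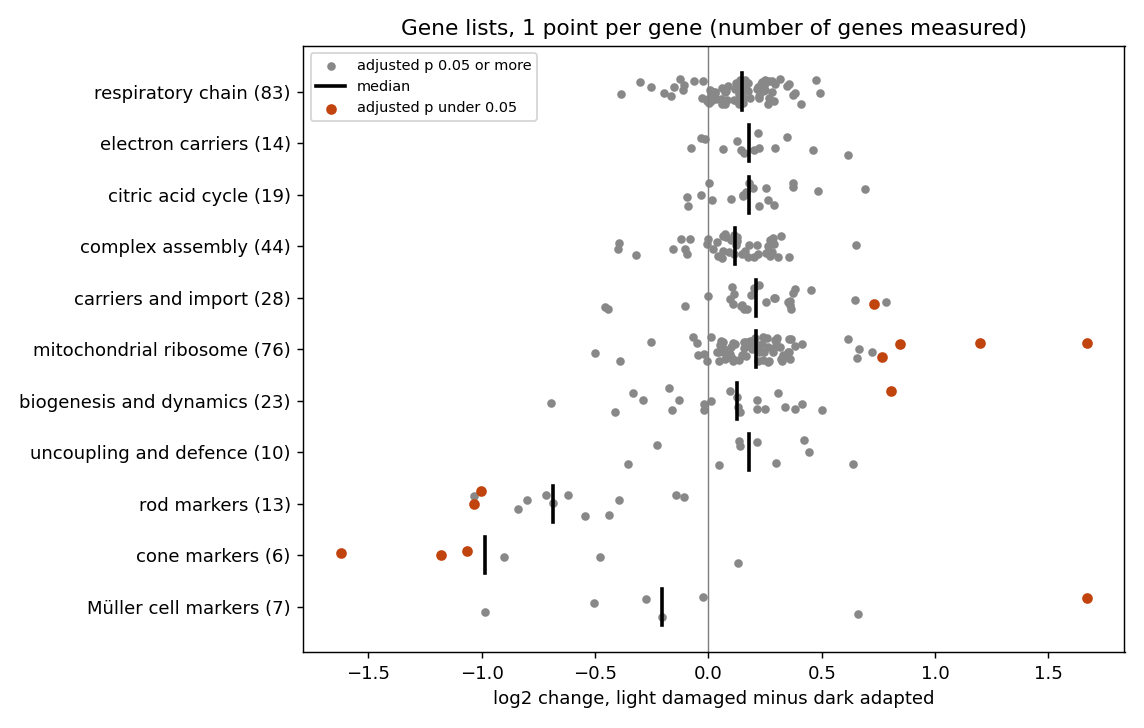
Log2 change of each gene, light damaged minus dark adapted, in the respiratory chain and in 7 other mitochondrial and 3 marker lists, with the number of genes measured; orange points have a limma adjusted p under 0.05 and bars are medians. The 83 respiratory chain genes hold no orange point and a median of 0.15, and the 13 rod markers all lie below 0 with a median of -0.69.

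Photoreceptor markers had negative medians, unlike the respiratory chain. Rod markers were bright on all arrays (mean level 11.64 to 12.08 in dark adapted and 11.03 to 11.44 in light damaged). All 13 had negative changes, with a median of -0.69, and 2 fell past the threshold, Nrl and Cngb1. Of 6 cone markers 3 fell, with a median of -0.98, and 0.269% of all genes were called lower. With the replicate block 9 of the 13 rod and 4 of the 6 cone markers fell, against 2.13% of all genes. The rod medians in pairs 1, 2 and 3 were -0.67, -0.82 and -0.47, where those of the respiratory chain genes were 0.0073, 0.09 and 0.35. Whether the difference between the lists exceeds the spread of the arrays was not tested. Müller cell markers had a median of -0.20 with 1 gene that rose, Vim, and microglia markers a median of 0.09 with 1 that rose, Cd68. Bipolar, amacrine and ganglion cell markers had no call and medians of -0.012, 0.09 and 0.04. Vascular markers, none of which passed, were positive in 5 of 5 with a median of 0.27 (0.29 after quantile normalization) and pair medians of 0.13, 0.24 and 0.37. Their part in the values of the respiratory chain genes was not tested. Markers of the retinal pigment epithelium had no call and a median of 0.00035, with a mean level of 7.43 on light damaged array 2 and 6.58 to 7.09 on the other arrays. Lens markers were present on all arrays (mean level 9.19 to 10.90) and without a call, and were highest on the arrays numbered 3 in both groups. Markers of blood had mean levels of 5.14 to 5.46. With the replicate block 2 Müller cell markers rose and 2 fell, 2 microglia markers rose and 1 fell, and 2 lens markers fell. In that fit 1 vascular and 1 pigment epithelium marker rose, against 6.73% of all genes called higher.

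Readings of one respiratory chain gene by several probe sets did not always share a sign. The 83 genes had 170 probe sets, with more than 1 for 49 genes, and 20 of those 49 had at least 1 that differed in sign from the one used. Fitted over all probe sets without choosing 1 per gene, 0 of the 170 passed, against 1.02% of all 45037 probe sets. With the replicate block 1 of the 170 did, against 4.68% (the second probe set of Ndufa3, adjusted p = 0.0431 in limma). The 10 probe sets shared between a respiratory chain gene and another gene, among them the only ones for Ndufa11 and Ndufs6, which are not among the 83, gave differences between -0.35 and 0.28, none past the threshold.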

How the data were processed

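The authors deposited log2 expression values made with RMA, per the submitters' processing notes, and the log2 scale was judged from their range of 3.30 to 13.89. Because RMA sets all arrays to a common scale, these values cannot show a difference in the amount of RNA per retina. The version and genome build are not given in the sources used here. Probe sets were assigned by GEO's platform annotation, and the probe set with the highest mean was taken among those with 1 gene, which left 18193 genes. All 83 members matched RefSeq (GRCm38.p6) by Entrez identifier. No filter on low values was set. Groups, taken from the titles, were compared with limma 3.58.1 (lmFit, eBayes) in R 4.3.3, adjusted by Benjamini-Hochberg over all genes (threshold 0.05). The procedure was tested on simulated data with independent noise, which held no shift of a whole array and no pairing of arrays. Same-numbered arrays correlated in their deviations from the group means by 0.732, 0.618 and 0.432, and arrays of different numbers by -0.48 to 0.0092. The numbers were thus taken to pair the arrays, an inference from the values, since no label states it. Members named one by one were those with the smallest p (3 per complex), the brightest of each complex, all of complex II, Cyc1 and the tissue isoforms with their partners; genes called with the block only; and in other lists the 2 with the smallest p. The members, lists and rules were chosen with earlier results of these data known. The number of arrays limits the precision.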

Additional observations from a re-analysis of the deposited data

How the results depend on the processing

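The count of 0 respiratory chain genes became 1 with the replicate block (Ndufa3), 1 with quantile normalization and the block together (Cox7a2l), and 1 over all probe sets with the block, an alternative chosen after seeing the data. It was 0 in the other alternatives, those that left out 1 array included. The median change of the members was -0.017 after centring on 6 reference genes, where that of all genes was -0.13, and -0.0021 to 0.24 with 1 array left out. The median of complex IV was -0.10 after quantile normalization, with or without the block, and -0.14 after centring. Over all genes, 365 were called, 1613 with the block, 1241 with quantile normalization and the block, 218 after centring and 151 to 417 with 1 array left out. Genes of the other mitochondrial lists called numbered 6, and 27 with the block, 21 with quantile normalization and the block, 2 after centring and 2 to 9 with 1 array left out (2 without dark adapted replicate 2 or without any 1 light damaged replicate). The sign turned after quantile normalization, with or without the block, in Atp5b (-0.15), Cox4i1 (-0.056), Cox5b (-0.013), Cox6a1 (-0.026), Cox7a1 (0.0031), Cox7a2 (-0.10), Cox8a (-0.14) and Cox8c (-0.12). It turned after centring in Atp5b (-0.16), Cox4i1 (-0.038), Cox6a1 (-0.050), Cox7a2 (-0.094), Cox8a (-0.14), Cox8c (-0.15), Ndufa4l2 (-0.083) and Uqcrb (-0.0088). It turned with the mean of probe sets in Cox6a2 (0.057) and Cox8c (-0.17), and without probe sets that match several transcripts in Cox5b (-0.18) and Cox7c (0.0043). With 1 array left out the change ranged across 0 in Atp5b (-0.16 to 0.165), Cox4i1 (-0.017 to 0.25), Cox6a1 (-0.081 to 0.24), Cox6a2 (-0.32 to 0.15), Cox6b1 (-0.034 to 0.46), Cox7a1 (-0.19 to 0.088), Cox8a (-0.026 to 0.079), Cox8b (-0.039 to 0.54), Cox8c (-0.025 to 0.060), Ndufa4 (-0.25 to 0.084) and Ndufa4l2 (-0.063 to 0.17). The causes were not tested. Members at low signal, Cox7a1, Cox7b2, Cox7c and Ndufb4, carry little information on direction.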
